A study of Mus musculus with 16 samples.

Results

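The long noncoding RNAs expressed in a mouse acute myeloid leukaemia cell line were compared between cells with and without the lactate carrier MCT4 and between low and ambient oxygen. They were taken as the autosomal genes that GENCODE vM21 types as lincRNA, antisense, bidirectional promoter lncRNA or sense intronic and that had a mean of at least 100 estimated counts over the 16 libraries. Of the 53801 genes of the deposited table, 7921 were autosomal genes of these types and 121 reached that mean. The 121 were 73 lincRNA, 38 antisense, 8 bidirectional promoter and 2 sense intronic genes, and 4 further genes above the mean were set aside by name. Just inside the limit lay Gm14005, Gm19792 and Gm16754, with mean counts of 100.1, 101.0 and 102.0, and just outside lay 4933431E20Rik, 1700086O06Rik and D930016D06Rik, with 99.4, 98.8 and 97.8. All 121 passed the count filter and were tested. A mean over all libraries can be reached through 1 condition alone, and 81 of the 121 had a mean of at least 100 in each of the 4 groups.

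The cells carried MLL-AF9, a fusion of a histone methyltransferase gene with AF9 that transforms blood progenitors, and grew with FBS, IL-3 and SCF. The groups were MCT4-KO cells at 2% oxygen, control cells at 2% oxygen, MCT4-KO cells at 20% oxygen and control cells at 20% oxygen, with 4 libraries each. In the MCT4-KO cells CRISPR-Cas9 had been aimed at MCT4, and the control cells had a guide with no target; both were given 4-OHT to switch on Cas9. The labels do not say whether the knockout was a clone or a pool, or whether replicates were separate cultures, and a p-value here covers no more than library-to-library variation, possibly technical. Libraries held 21192179 to 28871459 estimated counts of poly(A)-selected RNA. Slc16a3, the gene of MCT4, stood at 365 ± 5.83 CPM in MCT4-KO against 812 ± 23.4 CPM in control cells at 2% oxygen, and at 79.9 ± 11.1 against 209.9 ± 23.0 CPM at 20% (CPM being the counts of a gene over the TMM-scaled library total, SD, n = 4). All 16 myeloid markers were above 1 CPM, 0 of 5 T cell and 0 of 4 B cell markers, 1 of 7 erythroid (Klf1, 1.62 CPM), 1 of 4 megakaryocyte (Pf4, 1.40 CPM) and 2 of 6 stromal and endothelial markers (Pecam1 the highest, 229.5 CPM). The summed level of the myeloid markers was 7989 to 8405 CPM in MCT4-KO and 8425 to 8764 in control cells at 2% oxygen, and 5090 to 5330 and 4863 to 5183 at 20%; the part of such markers in the oxygen changes below was not tested. Replicate 4 of the control cells at 2% oxygen lay apart from its group for several of the genes below, and the main counts of calls it enters are given also without it.

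A long noncoding RNA (lncRNA) is a transcript with no long conserved reading frame. Some act on the gene next to them from the place where they are made, some bind proteins or microRNAs in the nucleus or cytoplasm, and for many only the act of transcription is known to matter. Most are made at low levels, and many start beside or overlap a coding gene, which makes their reads hard to assign. In blood cells they have been tied to the lifespan of myeloid cells, to the cell cycle and to the response to p53.

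The counts of these genes differ in what they measure. In 46 of the 121, here called counted apart, no exon overlapped a coding exon, no transcript matched another gene over most of its length, and the estimated counts were whole numbers in nearly all libraries. In 36 an exon overlapped a coding exon, in 19 most of a transcript was a near-identical copy of sequence elsewhere, in 17 the count was divided with other genes, and 3 lay in a ribosomal RNA repeat on chromosome 17. The strand setting of the counting is not given in the sources used here, so reads from overlapping genes cannot be told apart. These classes were made after the positions and counts had been seen but without the test results. Of 83 genes matched by name to RefSeq, 72 were lncRNA there and 7 were coding, among them Gm20939 and Gm32856. Another 2 were pseudogenes and 2 transcribed pseudogenes, Gm32618 being one of these.

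Per kilobase of exon, the 8 highest genes were Gm47854, Gm26917, Gm42418, AY036118, Gm48161, Gm29562, Gm46430 and Gm27048. Gm47854 averaged 786 CPM per kilobase, Gm26917 263 and Gm27048 43.2, against a median of 4.03 over the 121 genes. None of the 8 was counted apart. Among those counted apart the highest were Epb41l4aos with 34.3, Gm17745 with 24.0, D5Ertd605e with 20.9 and 1700020I14Rik with 17.6 CPM per kilobase. The 8 at the top lay in the ribosomal RNA repeat or shared sequence or reads with other genes.

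Gm47854 (chromosome 9, 51621425 to 51655127, minus strand, GRCm38) holds on its opposite strand a copy of Gapdh, the gene of a glycolytic enzyme. The copy matched 1029 bases of the Gapdh open reading frame at 96.3% identity. Sequence shared with Gapdh made up 29.2% of the Gm47854 transcript, and 47 other genes, Gapdh included, matched some part of it. Gm26825 (chromosome 5) likewise holds a copy of Hspa8, a heat shock cognate chaperone gene, matching 1855 bases at 99.7%. A stretch of 60 bases of each pair is printed to show how few bases can tell the reads apart there. It is the first stretch without a gap that holds a mismatch away from its ends. Over the whole match there were 29 mismatches and 9 gap bases for Gapdh, and 5 mismatches and 0 gap bases for Hspa8. The coding gene comes first, then the reverse complement of the lncRNA transcript, with the base that differs in capitals.
Gapdh: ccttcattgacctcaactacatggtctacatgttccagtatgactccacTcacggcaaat
Gm47854: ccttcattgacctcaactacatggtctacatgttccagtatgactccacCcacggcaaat
Hspa8: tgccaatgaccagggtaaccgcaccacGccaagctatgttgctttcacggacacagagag
Gm26825: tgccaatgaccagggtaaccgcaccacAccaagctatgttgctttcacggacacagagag
The 4 sequences are from the GENCODE vM21 transcripts, bases 179 to 238 of the Gapdh frame and 87 to 146 of the Hspa8 frame.

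The changes of several genes with such matches lay close to those of a matching coding gene, and those of others did not. Gm47854 stood at 4394 ± 93.2 CPM in MCT4-KO cells at 2% oxygen against 1157 ± 55.9 CPM at 20%, a log2 fold change of 1.93 ± 0.0397 (SE), where Gapdh changed by 1.96 ± 0.0445. In control cells the change was 1.94 ± 0.0398 for Gm47854 and 1.92 ± 0.0444 for Gapdh. Gm27048, with a shorter match to Gapdh, rose by 1.93 in MCT4-KO and 1.92 in control cells. Gm26825 rose by 0.92 in control cells at 2% oxygen, where Hspa8 rose by 0.89. Gm48161 and Gm29562 hold sequence found in 26 and 15 other genes. The best coding match of both is the amino acid transporter gene Slc38a6, which need not be the source. They were lower in MCT4-KO than in control cells at 2% oxygen by 0.53 and 0.56, and Slc38a6 itself fell by 0.40. Gm14133, of which 64.6% matches Gapdh, rose by 1.86 in MCT4-KO but by 1.36 in control cells. Gm29084 matches 30 other genes, among them the nocturnin gene Noct over its whole length. It fell by 0.28 (adjusted p = 0.00136) at 2% oxygen in MCT4-KO cells, where Noct rose by 0.21 (adjusted p = 2.66e-05). How far the reads given to these lncRNA genes came from the coding genes or other matching genes was not tested.

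**Figure D1:**
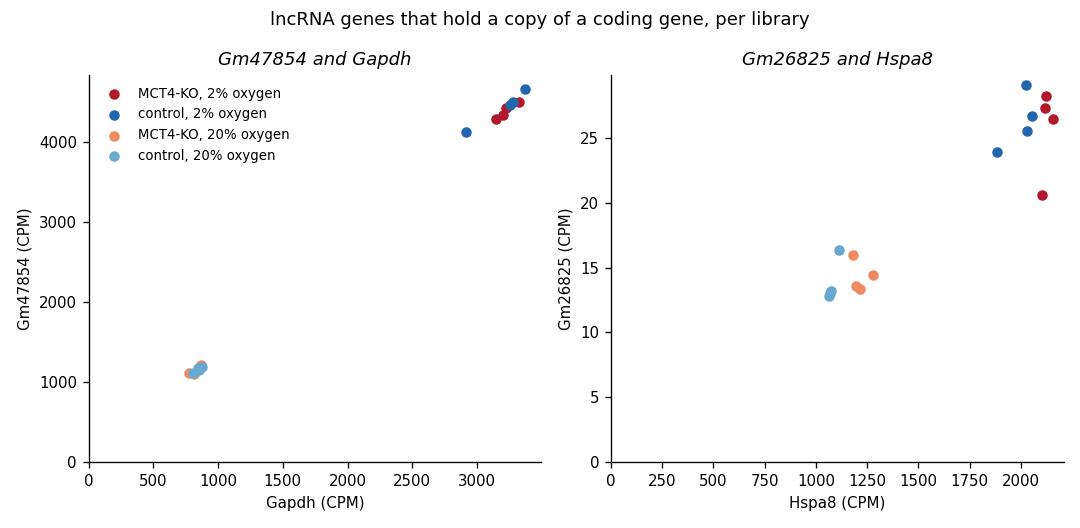
Level of a lncRNA gene (y axis, CPM) against the coding gene whose sequence it holds (x axis, CPM), each point 1 of 16 libraries and each colour 1 of the 4 groups. The 2% libraries lie at the upper right in both panels, and Gm47854 keeps nearly the same ratio to Gapdh in every library.

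How much of the RNA the lncRNA genes seemed to take depended on which of them were summed. All 121 genes together held 0.724 ± 0.00774% of the counts in MCT4-KO and 0.726 ± 0.0165% in control libraries at 2% oxygen, against 0.557 ± 0.0177% and 0.583 ± 0.0191% at 20%. Gm47854 alone accounted for 0.417% and 0.410% at 2% oxygen and for 0.124% and 0.123% at 20%. The 46 genes counted apart held 0.0580 ± 0.00118% in MCT4-KO against 0.0646 ± 0.000899% in control cells at 2% oxygen. At 20% they held 0.0674 ± 0.000463% in MCT4-KO and 0.0696 ± 0.00165% in control cells. The summed share of the 121 was therefore higher at 2% oxygen, while the share of the 46 counted apart was lower. These are shares of the unscaled library totals, without the TMM scaling used for CPM. The TMM factors were 0.912 to 0.953 at 2% oxygen and 1.056 to 1.078 at 20%. On the TMM scale the median log2 fold change of the 46 genes at low oxygen was -0.24 in MCT4-KO and -0.02 in control cells.

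Low oxygen changed most of the lncRNA genes in both genotypes, as it did most of all genes tested. In MCT4-KO cells 32 of 121 (26.4%) were higher at 2% than at 20% oxygen and 62 (51.2%) lower. The test was edgeR's quasi-likelihood test, called at a Benjamini-Hochberg adjusted p under 0.05 over 13774 genes. Of all genes tested, 37.7% were higher and 38.7% lower. In control cells 43 (35.5%) were higher and 54 (44.6%) lower, against a background of 38.7% and 39.6%. Without replicate 4 of the control cells at 2% oxygen the counts were 41 and 54. Not called were 27 of 121 lncRNA genes and 3254 of 13774 genes in MCT4-KO, and 24 and 2984 in control cells. The median log2 fold change was -0.25 in MCT4-KO and -0.13 in control cells, beside -0.01 and -0.02 over all genes. Scaled by library size alone, which moved the median of all genes to -0.19 in MCT4-KO and -0.22 in control cells, the counts were 24 higher and 77 lower in MCT4-KO and 34 and 67 in control cells. The calls in both genotypes overlapped: 31 genes were higher in both, which is 96.9% of those in MCT4-KO and 72.1% of those in control cells. Another 51 were lower in both, 82.3% and 94.4%. The like overlap over all genes was not counted, so this is not shown to be a trait of the lncRNA genes. Gm17745, Gm29084 and Gm32618 were lower in MCT4-KO and higher in control cells; under library-size scaling the rises of Gm17745 and Gm29084 did not pass (adjusted p = 0.243 and 0.556). Of the 81 genes with a mean count of at least 100 in every group, 22 were higher and 36 lower in MCT4-KO, and 32 and 30 in control cells.

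Among the 46 genes counted apart, 14 were higher and 24 lower at 2% oxygen in MCT4-KO, and 20 and 20 in control cells; scaled by library size alone these were 9 and 27, and 16 and 25. The largest rise in control cells was that of D5Ertd605e (chromosome 5, 147418601 to 147423044, plus strand), a lincRNA gene 7117 bases from Pan3, which encodes a subunit of a poly(A) nuclease. D5Ertd605e had 25.0, 27.2, 25.8 and 25.9 CPM in MCT4-KO cells at 2% oxygen and 12.8, 13.8, 15.5 and 14.5 at 20%. In control cells it had 38.5, 36.3, 38.2 and 35.2 CPM at 2% and 14.2, 13.2, 11.6 and 14.2 at 20%. The 2% and 20% libraries did not overlap in either genotype, and the control libraries at 2% were the highest of all. The log2 fold change was 0.88 ± 0.0625 in MCT4-KO (adjusted p = 6.83e-11) and 1.47 ± 0.0617 in control cells (adjusted p = 8.94e-15), and Pan3 changed by 0.08 (adjusted p = 0.133) and 0.61 (adjusted p = 1.56e-10).

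5031425E22Rik starts 172 bases from the divergent gene Kmt2e, a chromatin regulator of the MLL family. It had 12.8, 10.98, 11.7 and 12.1 CPM in MCT4-KO cells at 2% oxygen and 6.35, 5.17, 6.25 and 5.63 at 20%, and 13.7, 13.8, 14.3 and 16.8 CPM in control cells at 2% and 5.99, 6.64, 6.49 and 6.68 at 20%. Both genotypes were about as far apart, with log2 fold changes of 1.02 ± 0.0816 and 1.18 ± 0.0793, and Kmt2e rose by 0.53 in MCT4-KO and 0.43 in control cells. 2310001H17Rik, 21878 bases from the lectin gene Clec2d, rose by 0.56 ± 0.143 in MCT4-KO and 1.09 ± 0.146 in control cells. With a mean count of 107.3, it passed the count limit through its level at 2% oxygen. The single gene counted apart with a rise over 1 in MCT4-KO beside 5031425E22Rik was D430020J02Rik, at 1.2 ± 0.0865, against 0.32 ± 0.091 in control cells.

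The falls at low oxygen included several genes counted apart and a pair of lncRNAs with a described role. 3300005D01Rik had 2.12, 2.40, 1.75 and 2.46 CPM in MCT4-KO cells at 2% oxygen against 6.87, 7.76, 7.46 and 7.35 at 20%, and 2.81, 2.94, 3.54 and 3.66 CPM in control cells at 2% against 8.81, 8.94, 7.82 and 7.35 at 20%. No 2% library reached a 20% library, and the changes were -1.76 ± 0.113 and -1.35 ± 0.105. Gm48898 fell by 1.59 and 1.57, Gm35189 by 1.0 and 1.26, and Gm20939, coding in RefSeq, by 1.21 and 1.54 in MCT4-KO and control cells. With mean counts of 130.8, 142.4 and 116.0, 3300005D01Rik, Gm35189 and Gm20939 passed the count limit through their level at 20% oxygen. Trp53cor1 (lincRNA-p21), which is induced by p53 and lies 11797 bases from Cdkn1a, fell by 1.16 ± 0.0788 in MCT4-KO and 1.09 ± 0.078 in control cells, whereas Cdkn1a, the cell cycle inhibitor gene, rose by 1.35 and 1.26. Mirt1, named for its rise after myocardial infarction in mice, fell by 1.07 and 1.12.

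**Figure D2:**
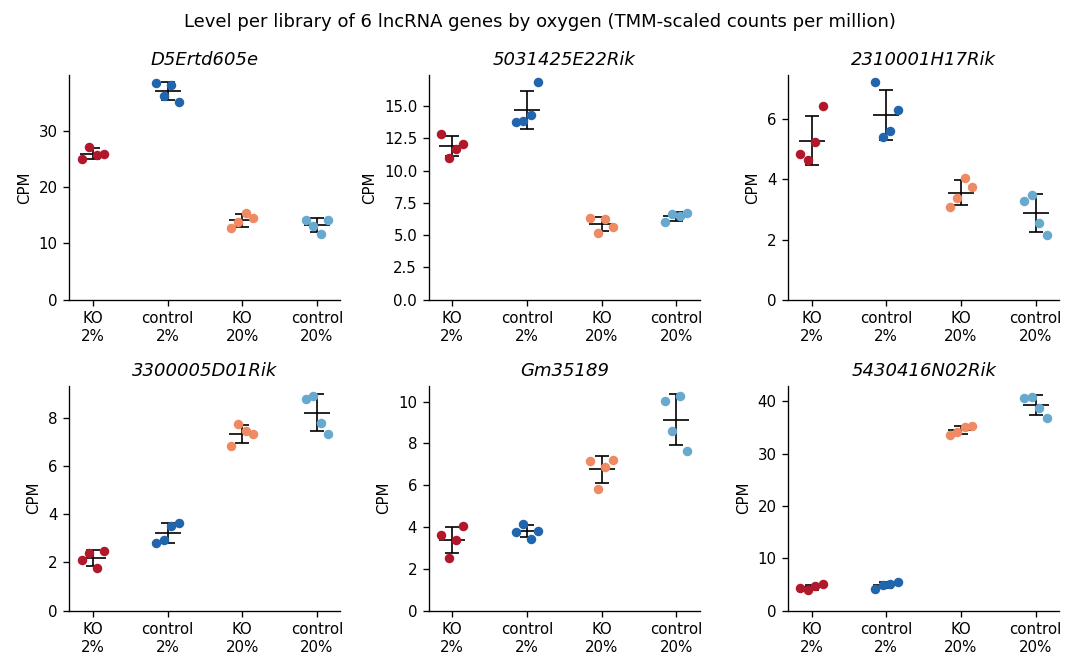
Level (y axis, CPM) of 6 lncRNA genes in the 4 groups (x axis), each point a library, the long bar the mean and the whiskers the SD (n = 4). D5Ertd605e, 5031425E22Rik and 2310001H17Rik are higher at 2% oxygen in both genotypes, and 3300005D01Rik, Gm35189 and 5430416N02Rik are lower.

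The largest fall of any of the 121 genes was that of 5430416N02Rik (chromosome 5, 100420842 to 100429535, minus strand), whose RefSeq synonym is Adapt33, an RNA known in hamster cells for its induction by oxidants. It had 4.36, 3.90, 4.64 and 5.01 CPM in MCT4-KO cells at 2% oxygen against 33.6, 34.1, 35.0 and 35.3 at 20%. Control cells had 4.15, 4.88, 5.09 and 5.53 CPM at 2% against 40.6, 40.9, 38.7 and 36.8 at 20%. All 8 libraries at 2% lay far below the 8 at 20%, by 2.94 ± 0.0697 (adjusted p = 1.11e-18) in MCT4-KO and 3.0 ± 0.069 (adjusted p = 5.77e-19) in control cells on the log2 scale. Its counts were divided with other genes. Sec31a, the nearest coding gene, had a log2 fold change of -0.10 (adjusted p = 0.143) in MCT4-KO and fell by 0.23 in control cells. Gm32856 fell by 1.79 and 2.19 in MCT4-KO and control cells, and it too is a gene with divided counts and is listed as coding in RefSeq.

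The largest rises were in antisense genes that overlap coding exons. Gm16754, which shares 510 of its 2611 exon bases with Keap1, the inhibitor of the oxidant response factor NRF2, had 7.51, 6.61, 5.99 and 7.65 CPM in MCT4-KO cells at 2% oxygen against 0.304, 0.444, 0.698 and 0.298 at 20%. Control cells had 10.1, 8.81, 9.24 and 10.2 CPM at 2% against 0.754, 0.422, 0.711 and 0.709 at 20%. Keap1 rose by 0.55 and 0.49 where Gm16754 rose by 3.96 ± 0.18 and 3.88 ± 0.164. Gm16754 thus passed the count limit through its level at 2% oxygen; the lowest count of any of the 121 genes in a library was 7.09.

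Gm15283 runs antisense to Hif1a, the oxygen-regulated subunit of the transcription factor HIF-1, and shares 330 of its 2353 exon bases with it. It stood at 6.81 ± 1.02 CPM in MCT4-KO and 11.1 ± 1.94 CPM in control cells at 2% oxygen, against 0.858 ± 0.232 and 1.37 ± 0.299 at 20%, rises of 2.97 ± 0.191 and 3.01 ± 0.168. Hif1a changed by 0.09 (adjusted p = 0.0606) in MCT4-KO and by -0.12 (adjusted p = 0.0226) in control cells. Gm12758, with 51.5% of its exon bases shared with 4931406P16Rik, rose by 2.65 and 3.48, while 4931406P16Rik fell by 0.37 and 0.60. Gm15283 and Gm12758, with mean counts of 116.4 and 138.6, also passed the count limit through their level at 2% oxygen. Gm16587, which overlaps Selp, the P-selectin gene, fell by 1.76 and 2.60. With a mean count of 128.5, it passed the limit through its level at 20% oxygen. Over the 36 genes with a coding exon overlap, 9 rose and 21 fell at 2% oxygen in MCT4-KO, and 9 rose and 18 fell in control cells. Where both such a gene and its tested partner passed, they moved the same way in 14 of 21 pairs in MCT4-KO and in 14 of 22 pairs in control cells. The like share over other gene pairs was not counted.

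Transcripts from the ribosomal RNA repeat went separate ways. Gm26917 had 407, 392, 385 and 390 CPM in MCT4-KO cells at 2% oxygen against 1475, 1234, 1149 and 1303 at 20%, and 287, 293, 301 and 397 CPM in control cells at 2% against 1382, 1722, 1555 and 1339 at 20%. It fell by 1.71 ± 0.0936 and 2.23 ± 0.0953. Gm42418, which RefSeq lists under a ribosomal RNA name, rose by 0.32 and 0.38, and AY036118 varied between 37.9 and 142 CPM within the control libraries at 2% oxygen alone. The part that poly(A) selection had in these values was not tested.

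At 2% oxygen, most lncRNA genes that differed between the genotypes were lower in the MCT4-KO cells. There were 12 higher and 50 lower of 121, where the background was 19.4% higher and 19.1% lower, so 9.92% and 41.3% of the lncRNA genes stood beside shares that were nearly equal among all genes. The median log2 fold change was -0.17 for the lncRNA genes and -0.004 for all genes tested. Of the 13774 genes tested, 11956 were protein-coding, and 21.7% of these were higher and 20.1% lower. The like shares over other noncoding genes were not set beside these, here or in the other comparisons. The excess of lower calls is therefore not shown to be a trait of these lncRNA genes. Without replicate 4 of the control cells at 2% oxygen there were 12 higher and 47 lower. Among genes with a mean count of at least 100 in every group, 8 were higher and 37 lower of 81. The lower calls were most frequent among genes counted apart: 3 higher and 27 lower of 46 (2 and 26 without that replicate), with a median of -0.29; the higher gene lost is Peg13. Of the 36 with a coding exon overlap 4 were higher and 12 lower, and of the 19 that hold copied sequence 2 were higher and 4 lower. The RNA is measured as a share of the whole, so a change per cell cannot be told from a change of the other transcripts.

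**Figure D3:**
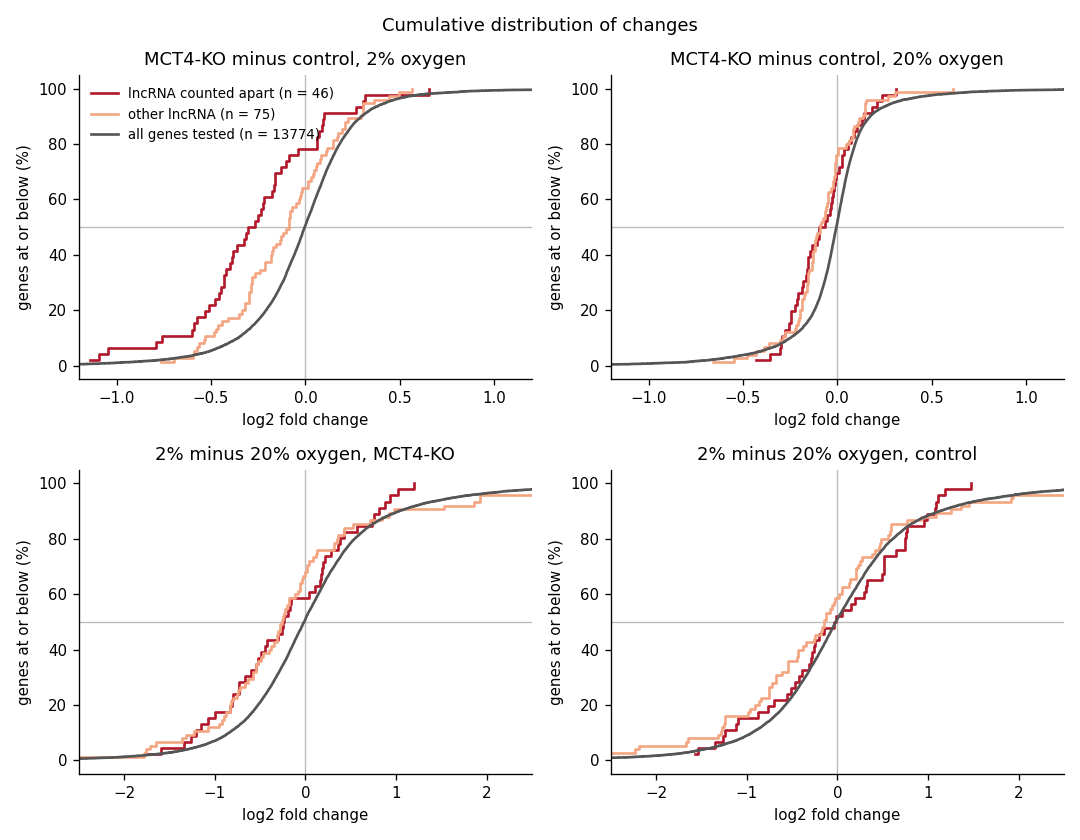
Cumulative share of genes (y axis, percent) at or below each log2 fold change (x axis) for the 46 lncRNA genes counted apart, the other 75 lncRNA genes and all 13774 genes tested, 1 panel per comparison. In the upper left panel, MCT4-KO minus control at 2% oxygen, the curve of the genes counted apart lies furthest left, with a median of -0.29 against -0.004 for all genes. A few genes lie beyond the plotted range.

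Gm32618 (chromosome 15, 32778904 to 32796006, plus strand), listed in RefSeq as a transcribed pseudogene and 82563 bases from Sema5a, which was not tested, showed the largest fall. It had 5.09, 4.98, 5.04 and 3.72 CPM in MCT4-KO cells at 2% oxygen, against 11.9, 8.64, 11.03 and 10.2 in control cells. At 20% it had 6.95, 7.10, 6.10 and 6.94 CPM in MCT4-KO and 7.22, 7.79, 8.09 and 6.64 in control cells. The genotypes were apart at 2% and overlapped at 20%. The log2 fold change was -1.14 ± 0.107 at 2% (adjusted p = 1.58e-07) and -0.13 ± 0.103 at 20% (adjusted p = 0.488), and the difference between them was -1.01 ± 0.149 (interaction, adjusted p = 9.31e-05).

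D730003I15Rik (chromosome 1, 191224454 to 191226140, plus strand) lies 6415 bases from Atf3, a stress-induced transcription factor gene. It had 5.01, 5.32, 5.41 and 4.52 CPM in MCT4-KO cells at 2% oxygen, against 10.7, 10.02, 11.98 and 10.7 in control cells. At 20% it had 5.26, 4.69, 4.49 and 4.48 CPM in MCT4-KO and 5.36, 6.06, 5.38 and 5.56 in control cells. Only the control libraries at 2% stood high, near 11 CPM. It fell by 1.09 ± 0.0796 (adjusted p = 7.63e-09) with an interaction of -0.85 ± 0.117 (adjusted p = 5.3e-05). Atf3 fell by 0.35 at 2% oxygen and by 0.39 at 20%.

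Gm36738 (chromosome 15, 78574411 to 78581616, minus strand), 1628 bases from Rac2, the GTPase gene of blood cells, had 4.53, 4.55, 4.42 and 4.79 CPM in MCT4-KO cells at 2% oxygen, against 9.16, 8.25, 9.24 and 11.1 in control cells. At 20% it had 3.35, 3.81, 3.49 and 3.58 CPM in MCT4-KO and 4.56, 4.76, 3.87 and 4.26 in control cells. It was highest in the control cells at 2%, and in MCT4-KO cells too the 2% libraries lay above the 20% ones, a rise of 0.36 ± 0.101 (adjusted p = 0.0033; 0.104 under library-size scaling). The fall was 1.04 ± 0.0908 (adjusted p = 6.84e-08) and the interaction -0.75 ± 0.137 (adjusted p = 0.000562), and Rac2 had a log2 fold change of -0.07 (adjusted p = 0.109).

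Gm17745, 24258 bases from the ETS factor gene Elk3, had 30.3, 29.6, 31.6 and 30.6 CPM in MCT4-KO cells at 2% oxygen, against 49.2, 50.3, 51.5 and 60.4 in control cells. It fell by 0.79 ± 0.0728 at 2% (adjusted p = 1.32e-07) and by 0.24 ± 0.0714 at 20% (adjusted p = 0.0348; lost in 6 of 8 fits with 1 library left out), where the groups overlapped. Elk3 had a log2 fold change of 0.01 at both oxygen levels (adjusted p = 0.842 at 2% and 0.941 at 20%). Gm28809, within the locus of the membrane protein gene Cd9, fell by 0.76 ± 0.082 at 2% and by 0.36 ± 0.0703 at 20%, and Cd9 fell by 0.13 and 0.32. Gm16845, which overlaps exons of Ecsit, fell by 0.77 at 2% oxygen where Ecsit rose by 0.33.

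The rises were fewer and smaller. D430020J02Rik (chromosome 12, 116401947 to 116405210, minus strand) starts 192 bases from the divergent gene Ncapg2, which encodes a condensin II subunit. It had 9.54, 9.31, 9.39 and 9.94 CPM in MCT4-KO cells at 2% oxygen, against 5.83, 6.995, 5.89 and 5.49 in control cells. At 20% it had 3.56, 4.29, 4.19 and 4.51 CPM in MCT4-KO and 5.20, 4.91, 4.27 and 5.002 in control cells. The MCT4-KO libraries at 2% were the highest of the 16, and the rise of 0.65 ± 0.0837 (adjusted p = 5.32e-06) came with an interaction of 0.88 ± 0.126 (adjusted p = 7.19e-05). Ncapg2 had a log2 fold change of 0.07 (adjusted p = 0.208). Beside it 4933404O12Rik rose by 0.27 ± 0.0583 and, among genes with overlapping or divided reads, 1700052K11Rik by 0.57, Gm10612 by 0.50 and Gm19792 by 0.30, the last call being lost in 5 of 8 fits with 1 library left out.

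**Figure D4:**
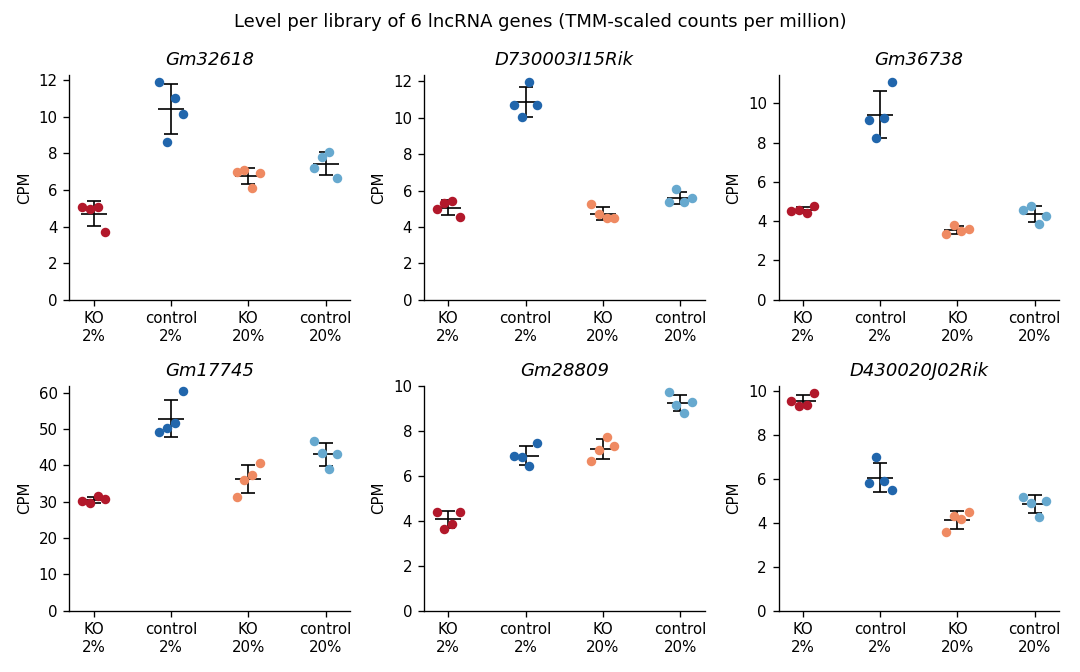
Level (y axis, CPM) of 6 lncRNA genes counted apart in the 4 groups (x axis), each point a library, the long bar the mean and the whiskers the SD (n = 4). Gm32618, D730003I15Rik and Gm36738 stand high in control cells at 2% oxygen, Gm28809 is lowest in MCT4-KO cells at 2%, and D430020J02Rik is highest there.

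Promoter windows of 4 genes counted apart are shown because they can be read for the core of the hypoxia response element, the site bound by HIF. The windows of 300 bases span the start in RefSeq on GRCm38.p6, in the direction of transcription, and capitals mark ACGTG or GCGTG on either strand. Matches on both strands overlap where the palindrome CACGTG occurs. The gene with the largest interaction of each sign and the 3 largest rises in control cells were taken among genes counted apart with 1 window, which gave 4 genes. The rise of D5Ertd605e and the negative interaction of Gm32618 were larger, but neither gene is among the 4.
D730003I15Rik (chr1:191224204-191224503, plus strand): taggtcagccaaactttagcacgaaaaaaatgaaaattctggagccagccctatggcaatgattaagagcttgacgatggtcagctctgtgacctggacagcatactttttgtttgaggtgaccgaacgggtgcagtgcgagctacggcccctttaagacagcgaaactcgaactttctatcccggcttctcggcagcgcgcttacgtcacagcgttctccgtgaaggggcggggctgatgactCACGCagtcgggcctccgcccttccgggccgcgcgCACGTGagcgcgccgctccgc
Gm36738 (chr15:78581540-78581839, minus strand): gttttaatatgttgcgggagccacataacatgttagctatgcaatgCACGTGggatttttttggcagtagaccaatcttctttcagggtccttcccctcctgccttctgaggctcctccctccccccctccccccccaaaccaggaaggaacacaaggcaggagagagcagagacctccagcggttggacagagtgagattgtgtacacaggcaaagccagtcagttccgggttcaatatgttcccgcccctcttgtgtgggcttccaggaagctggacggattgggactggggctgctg
5031425E22Rik (chr5:23433287-23433586, minus strand): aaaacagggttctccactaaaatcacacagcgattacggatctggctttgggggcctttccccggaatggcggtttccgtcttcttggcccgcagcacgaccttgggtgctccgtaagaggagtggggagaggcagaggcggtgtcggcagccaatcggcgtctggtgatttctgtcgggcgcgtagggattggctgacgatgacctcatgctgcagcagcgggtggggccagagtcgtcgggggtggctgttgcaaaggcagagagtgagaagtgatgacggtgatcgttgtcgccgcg
D430020J02Rik (chr12:116405112-116405411, minus strand): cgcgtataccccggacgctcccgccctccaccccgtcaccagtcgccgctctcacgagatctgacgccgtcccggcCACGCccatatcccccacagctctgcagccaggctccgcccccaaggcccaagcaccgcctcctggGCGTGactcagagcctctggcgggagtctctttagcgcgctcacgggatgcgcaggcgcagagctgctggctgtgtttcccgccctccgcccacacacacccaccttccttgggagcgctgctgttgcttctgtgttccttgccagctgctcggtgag
D730003I15Rik and Gm36738, high in control cells at 2% oxygen, both hold CACGTG. D430020J02Rik, high in MCT4-KO cells at 2% oxygen, holds GCGTG on each strand, and 5031425E22Rik, high in both, holds no match in its window. That window follows a RefSeq start that lies inside the gene as GENCODE places it. The GENCODE start beside Kmt2e, at base 23434269, is not covered by the window. A match was found in 43.8% of all 32851 windows. Among windows of genes counted apart, 3 of 10 held one where the gene rose at 2% oxygen in both genotypes and 13 of 22 where it fell in both, some genes having several windows. A match of 5 letters is no evidence of binding.

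At 20% oxygen fewer lncRNA genes differed between the genotypes. There were 3 higher and 17 lower of 121 in MCT4-KO cells, against a background of 4.96% higher and 4.80% lower, and the median log2 fold change was -0.09 against -0.005 for all genes. That background too was mostly protein-coding genes, of which 5.57% were higher and 5.01% lower. This count of lower genes depended on single libraries: it was 10, 7 and 9 without replicates 1, 2 and 3 of the MCT4-KO cells, and 7 and 11 without replicates 1 and 2 of the control cells. The genes counted apart gave 2 higher and 7 lower of 46, and 3 to 6 lower with any 1 library left out. Chromosome 12 bore on these calls: 5 of its 8 lncRNA genes were lower, and so were 104 of the 523 genes tested on it, with 9 higher. Off chromosome 12, 3 were higher and 12 lower of 113 at 20% oxygen, and 11 higher and 45 lower at 2%. A cause for the shift of chromosome 12 was not tested.

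Of the genes called at 20% oxygen, Gm16587 fell most, by 0.48 ± 0.0984 (adjusted p = 0.00336), with 8.56, 6.95, 6.21 and 6.49 CPM in MCT4-KO against 9.80, 10.9, 9.69 and 8.85 in control cells. Gm35189, on chromosome 12 near the Myc partner gene Max, fell by 0.43 ± 0.108 (adjusted p = 0.014), with 7.17, 5.80, 6.87 and 7.20 CPM in MCT4-KO against 10.04, 8.59, 10.3 and 7.65 in control cells. Neither pair of groups overlapped. The call of Gm35189 was lost in 3 of 8 fits with 1 library left out. Gm47015, 1700052K11Rik, Gm28809 and 1110002L01Rik fell by 0.39, 0.36, 0.36 and 0.30. The 3 rises were those of 4933404O12Rik (0.21 ± 0.0646), Peg13 (0.18 ± 0.0408) and Brip1os (0.15 ± 0.0344). The call of 4933404O12Rik (adjusted p = 0.0418) rested on single libraries: with 1 left out it was lost in 7 of 8 fits (adjusted p up to 0.134), and with a replicate block it was 0.0662. The other two kept theirs in all of these. The 3 were called higher in MCT4-KO cells at 2% oxygen as well, for Peg13 with the limits given below. Lower at both levels were 11 genes, which is 64.7% of the lower calls at 20% and 22% of those at 2%. The like overlap over all genes was not counted. 1700052K11Rik was lower at 20% and higher at 2%, but its call at 20% was lost in 7 of 8 fits with 1 library left out.

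The effect of the knockout differed with oxygen for 27 lncRNA genes. The interaction, taken as the knockout change at 2% minus that at 20%, was positive for 6 and negative for 21 of 121, against a background of 11.6% positive and 11.3% negative. Without replicate 4 of the control cells at 2% oxygen the counts were 9 and 19. The interaction and the comparisons above share their libraries. Genes counted apart gave 1 and 11 of 46 (1 and 9 without that replicate), the 1 being D430020J02Rik and the 11 led by Gm32618, D730003I15Rik and Gm36738. The largest values of other genes were 0.93 ± 0.174 for 1700052K11Rik, 0.84 ± 0.189 for Gm16587 and 0.52 ± 0.129 for Gm26917 on the positive side, and -0.83 ± 0.232 for Gm12758 on the negative side. For Gm26917, replicate 4 of the control cells at 2% oxygen read 397 CPM where the other 3 read 287 to 301.

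Of lncRNAs with a described role, 11 were among the 121. Gm14005, named Morrbid in RefSeq, is a myeloid lncRNA known to hold down its neighbour Bcl2l11, which encodes the death protein BIM. It had 5.01, 4.12, 3.62 and 3.67 CPM in MCT4-KO cells at 2% oxygen against 5.36, 6.05, 5.89 and 5.17 in control cells, and 3.69, 3.81, 3.42 and 3.54 in MCT4-KO against 3.25, 3.34, 3.29 and 3.25 in control cells at 20%. The control libraries at 2% were the highest, and through them the gene passed the count limit, with a mean count of 100.1. It fell by 0.46 ± 0.102 in MCT4-KO cells at 2% oxygen (adjusted p = 0.00139), with an interaction of -0.59 ± 0.148 (adjusted p = 0.00659). Bcl2l11 fell as well, by 0.21 (adjusted p = 0.0169), and low oxygen raised both in control cells, by 0.77 and 0.40.

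Lockd lies 3579 bases downstream of Cdkn1b, the gene of the cell cycle inhibitor p27, and its start is known as an enhancer of that gene in erythroid cells. Its counts were divided. It stood at 27.2 ± 1.38 CPM in MCT4-KO against 41.1 ± 5.86 CPM in control cells at 2% oxygen and fell by 0.60 ± 0.0868 (adjusted p = 2.23e-05). Cdkn1b fell by 0.55 ± 0.0418 (adjusted p = 1.2e-08). With low oxygen they parted in control cells, where Lockd fell by 0.38 and Cdkn1b rose by 0.49. Epb41l4aos, which hosts a small nucleolar RNA gene, stood at 9.27 ± 0.561 CPM in MCT4-KO against 14.1 ± 2.84 CPM in control cells at 2% oxygen and fell by 0.60 ± 0.112 (adjusted p = 0.00027). The 3 host genes of microRNAs or small nucleolar RNAs, Epb41l4aos, Gm35853 and Gm6277, were all lower in MCT4-KO cells at 2% oxygen, where 19.1% of all genes were lower. Gm35853 and Gm6277 overlap exons of Krt80 and Cables1, which fell by 0.54 (adjusted p = 0.000424) and 0.26 (adjusted p = 5.25e-05).

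Pvt1, 47612 bases from Myc and often amplified with it, has divided counts. It rose by 0.29 ± 0.113 in MCT4-KO cells at 2% oxygen (adjusted p = 0.0454), with groups that overlapped and a call lost in 6 of 8 fits with 1 library left out, and Myc rose by 0.43. At low oxygen Pvt1 fell by 0.89 in MCT4-KO and 1.28 in control cells, and Myc by 0.16 and 0.58. With a mean count of 129.7, Pvt1 passed the count limit through its level at ambient oxygen. Of the imprinted genes, Kcnq1ot1, the paternally expressed RNA that silences its neighbours and whose exons overlap Kcnq1, rose by 0.44 ± 0.163 (adjusted p = 0.0382; lost in 4 of 8 fits with 1 library left out) in MCT4-KO cells at 2% oxygen. Peg13, in an intron of Trappc9, had a log2 fold change of 0.10 ± 0.0391 (adjusted p = 0.0471) there, a call lost in 7 of 8 of these fits (adjusted p up to 0.172) and under 5 of 6 other settings (up to 0.144). Tug1, which starts beside Morc2a and overlaps it, fell at low oxygen by 0.47 and 0.54 in MCT4-KO and control cells, with 0.05 ± 0.0442 (adjusted p = 0.447) between genotypes at 2%.

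The most abundant described lncRNAs moved little. 2900097C17Rik (Norad), which binds Pumilio proteins, stood at 207 ± 3.35 CPM in MCT4-KO and 192 ± 5.36 CPM in control cells at 2% oxygen and at 216 ± 17.6 and 200.2 ± 12.1 CPM at 20%. None of its comparisons passed, the smallest adjusted p being 0.092 for the genotypes at 2%. 1700020I14Rik (Cyrano, or Oip5os1), which directs the decay of miR-7, stood at 159 ± 3.46 and 152 ± 3.32 CPM at 2% oxygen and at 139 ± 7.56 and 137 ± 6.55 CPM at 20% in MCT4-KO and control cells. It rose at low oxygen by 0.19 ± 0.0395 in MCT4-KO and 0.15 ± 0.0397 in control cells; in control cells library-size scaling turned this to -0.05 (adjusted p = 0.251). Trp53cor1 and Mirt1, given above for oxygen, had log2 fold changes of -0.16 and -0.16 between the genotypes at 2% oxygen (adjusted p = 0.162 and 0.229).

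**Figure D5:**
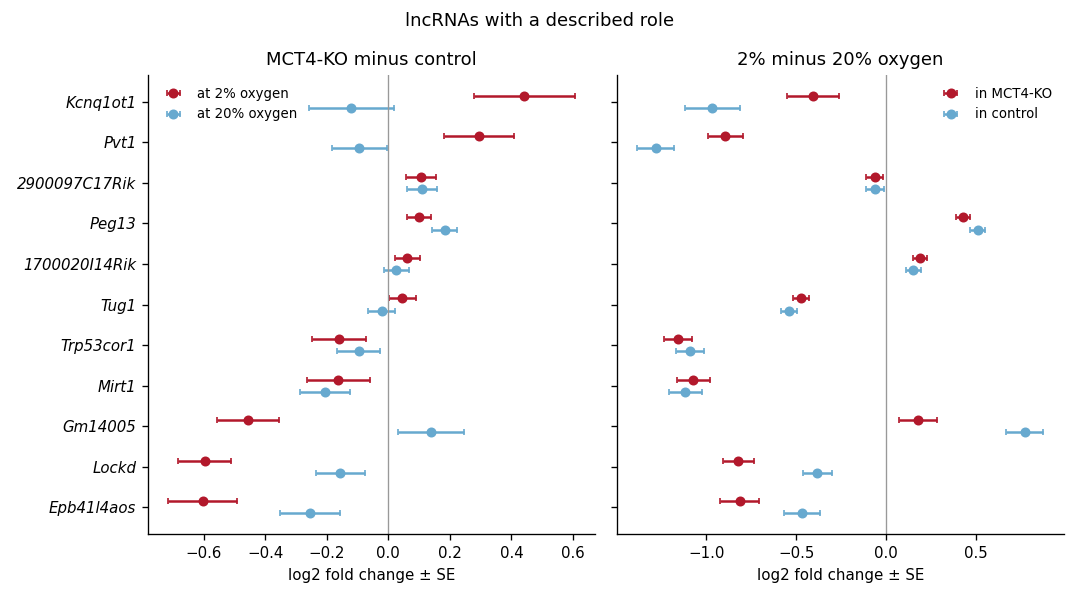
Log2 fold change ± SE (x axis) of the 11 lncRNAs with a described role, between genotypes at each oxygen level on the left and between oxygen levels in each genotype on the right. At 2% oxygen Epb41l4aos, Lockd and Gm14005 are lowest in the knockout and Kcnq1ot1 and Pvt1 highest; Trp53cor1 and Mirt1 fall by more than 1 at low oxygen in both genotypes.

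Neighbouring coding genes were compared by position. Of the 121 genes 12 start divergently beside a coding gene, 36 overlap coding exons, 16 lie within or across introns and 57 are separate, and 92 had a partner that was tested. Among the 12 divergent genes, 7 were called in MCT4-KO against control cells at 2% oxygen, 2 of them together with the partner, 1 in the same and 1 in the opposite direction. Among the 39 separate genes with a tested partner 20 were called, 10 together with the partner, of which 9 moved the same way. At low oxygen in control cells the separate pairs gave 24 of 31 in the same direction and the divergent pairs 5 of 9. No test was made of these counts, and the like share over other neighbouring genes was not counted. The partner of a separate gene is the nearest coding gene at any distance, up to 994117 bases away. Of the 57 separate genes 29 were counted apart.

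Genes of the machinery that trims and decays nuclear RNA were looked at beside the lncRNAs. The nuclear exosome degrades noncoding transcripts that end early, and of 23 genes of the complex and its cofactors 10 were higher and 2 lower in MCT4-KO than in control cells at 2% oxygen (background 19.4% and 19.1%), with a median of 0.09. Dis3, a catalytic subunit, stood at 38.9 ± 0.841 CPM in MCT4-KO against 25.8 ± 2.55 CPM in control cells. At 20% oxygen 0 were higher and 1 lower (background 4.96% and 4.80%), and at low oxygen 4 were higher and 16 lower in each genotype (background 37.7% and 38.7% in MCT4-KO, 38.7% and 39.6% in control cells). Of 12 genes of microRNA processing 6 were higher and 2 lower in MCT4-KO cells at 2% oxygen (the same background), among them Dgcr8, the partner of Drosha, at 14.3 ± 0.907 against 9.39 ± 0.372 CPM. At 20% oxygen 0 of the 12 were called. Whether these changes bear on the lncRNA levels was not tested.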

How the data were processed

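The authors deposited expected counts, the estimated counts per gene that RSEM gives, for 16 libraries; HISAT2, RSEM and mm10 are named, with no version, per the submitters' processing notes. Poly(A) RNA was selected, per the labels' protocols. Gene types and positions came from GENCODE vM21, and names and promoters from RefSeq (GRCm38.p6). The counts were rounded and fitted with edgeR 4.0.16 (quasi-likelihood test, TMM scaling, filterByExpr, 1 mean per group, 13774 genes, Benjamini-Hochberg adjustment over all of them, called under 0.05) in R 4.3.3, and with DESeq2 1.42.0 as an alternative. The fit was tested on simulated data. Values are TMM-scaled CPM. Near-identical sequence was found with blastn 2.17.0 between transcripts. Genes counted apart have no coding exon overlap, decimal counts in at most 5 of 16 libraries, no transcript matched elsewhere over at least 50% of its length, and lie outside the ribosomal RNA repeat.

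Named genes are the 8 with the highest level per length, the largest called changes per comparison (up to 6 each way with groups apart, up to 4 for the interaction), the described lncRNAs and those at the count limit. Genes named beyond these, such as 5031425E22Rik, 2310001H17Rik, Gm48898 and Gm20939, were chosen after their values were seen. The 121 genes and all lists were chosen with earlier results of these data known. Same-numbered replicates did not vary together (correlations of -0.064 to 0.115 over 24 pairs), so the numbers were not used as pairs. Alternatives were other scalings, no count filter, DESeq2, a fit of the compared groups, a replicate block and leaving out each library.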

Additional observations from a re-analysis of the deposited data

Results flagged for a closer look

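Among the named genes, 13 of 176 groups of 4 libraries held a library far from the other 3 by Dixon's 95% criterion, where chance gives about 1 group in 20. In MCT4-KO cells at 2% oxygen these were 1110002L01Rik in replicate 2 (7.34 CPM), 1700020I14Rik in replicate 4 (163.7 CPM), Gm32618 in replicate 4 (3.72 CPM) and Gm47015 in replicate 4 (5.86 CPM). In control cells at 2% oxygen replicate 4 was high for Gm26917 (397 CPM), Gm42418 (455 CPM) and Gm29562 (83.1 CPM). In MCT4-KO cells at 20% oxygen they were Epb41l4aos in replicate 4 (17.5 CPM), Kcnq1ot1 in replicate 4 (6.71 CPM) and Gm32618 in replicate 3 (6.10 CPM). In control cells at 20% oxygen they were 4933404O12Rik in replicate 1 (12.9 CPM), Gm16754 in replicate 2 (0.422 CPM) and Gm16845 in replicate 2 (5.99 CPM).

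For 17 of the named genes the knockout changed the level differently at 2% and at 20% oxygen (edgeR interaction), and 12 of these values were negative. Among genes counted apart the interaction was 0.88 for D430020J02Rik, -1.01 for Gm32618, -0.85 for D730003I15Rik, -0.75 for Gm36738, -0.60 for D5Ertd605e, -0.59 for Gm14005, -0.54 for Gm17745 and -0.41 for Gm28809. Among the others it was 0.93 for 1700052K11Rik, 0.84 for Gm16587, 0.52 for Gm26917, 0.41 for Gm32856, -0.83 for Gm12758, -0.61 for Gm16845, -0.57 for Gm29562, -0.52 for Gm48161 and -0.44 for Lockd.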

How the results depend on the processing

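The count of lncRNA genes lower in MCT4-KO than in control cells at 20% oxygen was 17, and 11 with a replicate block, although the numbers do not pair the libraries; with 1 library left out it was 7 to 12. The other counts over all 121 genes stayed within 1.5 times the main one under every alternative run. Among the 46 counted apart, 9 instead of 14 were higher at 2% oxygen in MCT4-KO cells under library-size scaling; at 20% oxygen 1 instead of 2 was higher with the replicate block, and 4 instead of 7 lower in a fit of the compared groups only. Of the single-gene values, library-size scaling reversed the change of 1700020I14Rik at 2% against 20% oxygen in control cells (-0.0512) and the interaction of 2900097C17Rik (0.0247). With 1 library left out, values near 0 changed sign: at 20% oxygen the knockout change ranged from -0.00518 to 0.054 for 1700020I14Rik, -0.251 to 0.0225 for Kcnq1ot1 and -0.0426 to 0.0189 for Tug1, and the interaction from -0.0503 to 0.0381 for 2900097C17Rik and -0.0297 to 0.101 for Mirt1. Elsewhere 18 single-gene values lost their call and 8 gained one under the other settings, and 47 and 7 with 1 library left out; the cause was not tested. Low counts limit the genes near the mean of 100: 65 of 121 had a mean under 200.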
